A study of Mus musculus with 7 samples.

Results

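The genes described here were nearly silent in wild type mouse thymus and were well above that level in thymus of mice homozygous for the Ikaros ZnF4 mutation. They were chosen from their measured values in RPKM (reads over exons, divided by exon length and by library size). A gene was taken when its wild type mean was below 1 RPKM, both ZnF4-/- libraries were at 1.5 RPKM or more, and the lower ZnF4-/- library was at least 3 times the highest wild type library. Of 16734 genes in the table, 6398 had a wild type mean below 1 RPKM, and 78 of these (1.22%) met all the limits. Klrd1, Ctnnd1, Pmaip1 and Krt18 were left out by name, and 15 further genes were left out because both ZnF1-/- libraries lay below the lowest wild type library. The remaining 59 genes are the members. Their difference between ZnF4-/- and wild type is what chose them, so it is given as a description and without a test.

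Thymus was taken from 4 week old mice, dispersed into a cell suspension and strained, and polyadenylated RNA was sequenced without sorting the cells. Libraries came from Ikaros ZnF4-/- mice (2 libraries), Ikaros ZnF1-/- mice (2 libraries) and wild type C57BL/6 mice (3 libraries, numbered 1, 2A and 2B). The background strain of the mutants, the way the alleles were made and whether replicates were separate or pooled animals are not given in the sources used here, so a p value measures the spread between these samples, which may be technical. Replicate 1 of every group was read as 76 bases on an older Illumina instrument, and all other libraries as 50 bases on a newer one. Because whole suspensions were sequenced, a change in the share of a cell type and a change in RNA per cell cannot be told apart.

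Ikaros, encoded by Ikzf1, is a zinc finger protein that binds DNA and is needed for normal lymphocyte development. Its DNA-binding domain has a row of zinc fingers; the inner fingers hold the core of the contact with DNA, while the first and the fourth finger, after which these mutations are named, modulate binding at subsets of sites. In developing T cells Ikaros is known both to silence and to activate genes, and loss of its activity is associated with leukaemia of immature T cells.

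Ikzf1 RNA itself was present in every library. It was at 238 and 257 RPKM in ZnF4-/- thymus, 183 and 194 RPKM in ZnF1-/- thymus, and 142, 175 and 170 RPKM in wild type thymus. A gene level value does not show whether an exon is missing, so Ikzf1 does not check the genotype labels. Between 10185 and 10695 genes reached 1 RPKM in a library. Mapped reads were recovered from the steps between low values for the 76 base libraries only, at about 6310000 in ZnF4-/-, 14320000 in ZnF1-/- and 20160000 in wild type. At these depths a member stood for about 11 to 477 reads (median 54) in ZnF4-/- replicate 1 and for 0 to 395 reads (median 16) in wild type replicate 1. The depth of the 50 base libraries is unknown. Xist was at 90.6 to 109 RPKM in the 3 libraries numbered 1 and at most 0.03 RPKM in the others, so sex and read length were split the same way within every group.

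Both ZnF4-/- libraries showed a similar level for most members. The mean level in ZnF4-/- thymus ran from 1.54 to 9.48 RPKM, with a median of 3.31 RPKM over the 59 members, against a median of 0.54 RPKM for the ZnF1-/- means and 0.44 RPKM for the wild type means. Only 7 members averaged at least 5 RPKM in ZnF4-/- thymus, 26 averaged 3 to 5 RPKM and 26 less than 3 RPKM, so these were low rather than abundant transcripts. In wild type thymus, 11 members averaged under 0.1 RPKM, 27 between 0.1 and 0.5 RPKM, and 21 between 0.5 and 1 RPKM, so for the last of these "nearly silent" is a loose name. The ratio of the lower ZnF4-/- library to the highest wild type library had a median of 5.45 and reached 425 for Evc, over the 58 members with a wild type value above 0. The ratio of ZnF4-/- to wild type had a median of 8.22 within the 76 base libraries (57 members) and of 7.73 within the 50 base libraries (58 members). Replicate 2 was above replicate 1 in ZnF4-/- thymus for 34 members and below it for 25, and the replicates lay within 1.5 times of each other for 44. Prss34 and Olfr524 were the members whose ZnF4-/- replicates differed more than 2 times.

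**Figure D1:**
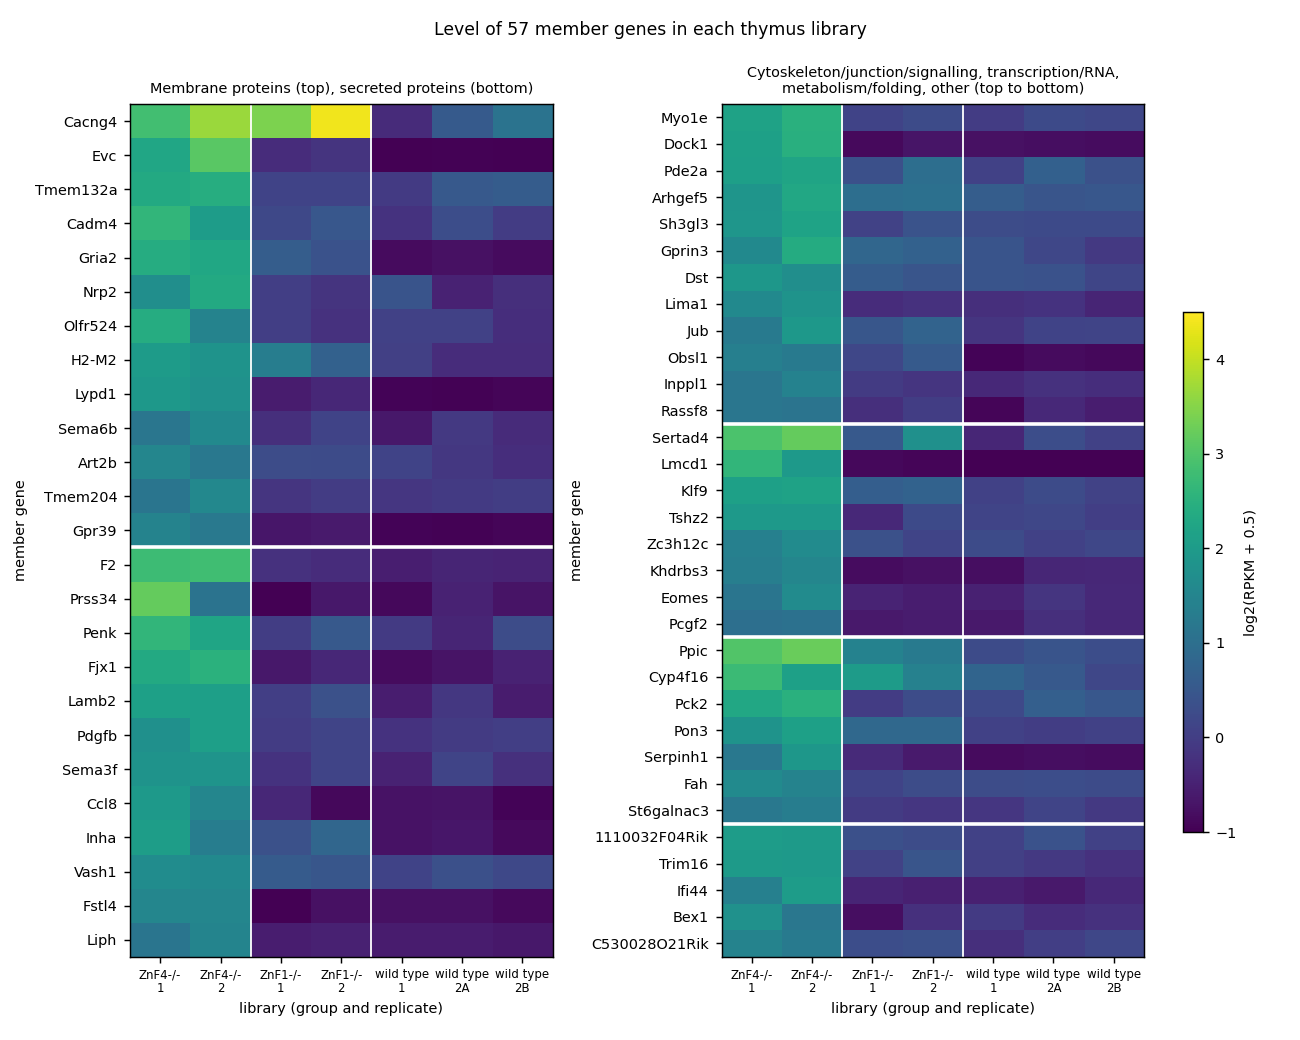
Colour gives log2(RPKM + 0.5) of 57 of the member genes (rows, grouped by the role of the protein) in each library (columns: ZnF4-/- 1 and 2, ZnF1-/- 1 and 2, wild type 1, 2A and 2B). The ZnF4-/- columns are high by the way the genes were chosen, while the ZnF1-/- columns are below them for every gene but Cacng4, at 10.2 and 20.3 RPKM in ZnF1-/- thymus.

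At each limit the genes just inside and just outside had similar values. The wild type mean was 0.973 RPKM for Cacng4, 0.937 for Arhgef5 and 0.93 for Cyp4f16 just inside, and 1.003 RPKM for Prg2, 1.02 for Cd163l1 and 1.03 for Lrp1 just outside. The lower ZnF4-/- library was at 1.51 RPKM for Pcgf2, 1.62 for Prss34 and 1.66 for Rassf8 just inside, and at 1.47 RPKM for Lgals7 and 1.39 for both Fzd6 and Kirrel just outside. The ratio was 3.01 for Gprin3, 3.03 for St6galnac3 and 3.04 for Fah just inside, and 2.96 for Apobr, 2.89 for Endod1 and 2.88 for Dnaja4 just outside. No gap in the values separated the members from the genes next to them.

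The members were spread over the genome. By the GENCODE M1 annotation of mouse build NCBIM37, the assembly also called mm9, 58 of the 59 could be placed on 17 chromosomes, most often chromosome 7 (9 members) and chromosome 1 (7 members). The RefSeq promoter table (build GRCm38.p6) matched 43 members through 54 promoters. The promoters of Sertad4, F2 and Evc are printed because these are among the members with the highest level in ZnF4-/- thymus. Each is the 250 bases before the annotated start, read 5′ to 3′ on the minus strand of the gene. Capitals mark TGGGAA, the core sequence that Ikaros is known to bind, which was searched on both strands. The Sertad4 promoter (chr1:192855753-192856002) also overlaps the annotated gene Gm15867, the F2 promoter is chr2:91636458-91636707 and the Evc promoter is chr5:37336882-37337131.
Sertad4: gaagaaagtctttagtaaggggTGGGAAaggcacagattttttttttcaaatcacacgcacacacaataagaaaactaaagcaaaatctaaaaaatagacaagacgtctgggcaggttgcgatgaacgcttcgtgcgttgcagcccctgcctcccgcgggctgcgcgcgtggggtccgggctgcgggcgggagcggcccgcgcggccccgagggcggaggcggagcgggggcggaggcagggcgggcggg
F2: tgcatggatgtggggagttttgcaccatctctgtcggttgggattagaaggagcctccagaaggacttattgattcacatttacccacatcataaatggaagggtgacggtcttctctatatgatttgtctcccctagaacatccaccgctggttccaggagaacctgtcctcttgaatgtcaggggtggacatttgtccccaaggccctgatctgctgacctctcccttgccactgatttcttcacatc
Evc: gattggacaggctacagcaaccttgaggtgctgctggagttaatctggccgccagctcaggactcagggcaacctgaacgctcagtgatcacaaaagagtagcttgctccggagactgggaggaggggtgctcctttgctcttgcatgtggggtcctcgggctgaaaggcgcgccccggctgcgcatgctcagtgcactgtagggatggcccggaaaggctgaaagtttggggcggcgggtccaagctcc
The Sertad4 promoter holds the motif once, 228 bases before the start, in a window with 25 CpG and 61.2% GC. Neither the F2 promoter (3 CpG, 49.2% GC) nor the Evc promoter (11 CpG, 60.8% GC) holds these letters. Over all member promoters, 11 of 54 (20.4%) held TGGGAA, against 21.6% of all 32851 mouse promoters in the table and 20.9% of the 14392 promoters of genes in the expression table. The members with the motif were Sertad4, Dock1, Pde2a, Arhgef5, Tshz2, Dst, Ccl8, Inha, Fah and Bex1. Member promoters had a median of 7.5 CpG, against 6.0 for all promoters and 13 for those of genes in the expression table. A match describes the letters in this window and is not evidence of binding.

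Among the 13 members that encode membrane proteins were an AMPA receptor subunit and an auxiliary subunit of that receptor. Cacng4, on chromosome 11 (107593671 to 107655871, minus strand), encodes a transmembrane regulatory protein that controls the trafficking and gating of AMPA-type glutamate receptors in neurons. It was at 6.63 and 12.3 RPKM in ZnF4-/- thymus, 10.2 and 20.3 RPKM in ZnF1-/- thymus, and 0.30, 0.97 and 1.65 RPKM in wild type thymus. Every mutant library was above every wild type library, and Cacng4 was the member for which ZnF1-/- exceeded ZnF4-/- within each read length. Gria2, on chromosome 3 (80488858 to 80606713, minus strand), encodes the AMPA receptor subunit that limits calcium entry. Its level was 4.77 and 4.33 RPKM in ZnF4-/- thymus, 1.05 and 0.80 RPKM in ZnF1-/- thymus, and 0.06, 0.09 and 0.06 RPKM in wild type thymus, so the 3 groups were fully separated.

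Evc lay on chromosome 5 (37680337 to 37728133, minus strand). It encodes a membrane protein at the base of the primary cilium that works with its partner Evc2 in hedgehog signalling. Evc had 4.25 and 8.01 RPKM in ZnF4-/- thymus, 0.31 and 0.39 RPKM in ZnF1-/- thymus, and 0, 0.01 and 0 RPKM in wild type thymus. Both mutants were above all wild type libraries, although the ZnF1-/- level was a small part of the ZnF4-/- level. Evc2 starts 1.58 kb away on the opposite strand and was no member. It was at 0.58 and 1.28 RPKM in ZnF4-/- thymus, 0 and 0.05 RPKM in ZnF1-/- thymus, and was listed at 0 in all 3 wild type libraries. Its mean was too low for the limma fit of filtered genes. In the fit without the filter, Evc2 was higher in ZnF4-/- than in wild type by 1.47 ± 0.19 log2 units (SE; adjusted p = 0.0118, limma, n = 2 and 3).

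Tmem132a, which encodes a single-pass membrane protein, had 4.54 and 4.91 RPKM in ZnF4-/- thymus, 0.58 and 0.57 RPKM in ZnF1-/- thymus, and 0.45, 0.94 and 1.01 RPKM in wild type thymus. ZnF1-/- and wild type overlapped. Cadm4, which encodes an immunoglobulin superfamily adhesion molecule, had 5.63 and 3.64 RPKM in ZnF4-/- thymus, 0.65 and 0.91 RPKM in ZnF1-/- thymus, and 0.37, 0.74 and 0.49 RPKM in wild type thymus. ZnF1-/- again overlapped wild type. H2-M2, a non-classical MHC class I gene, was at 3.58 and 3.05 RPKM in ZnF4-/- thymus, 2.01 and 1.14 RPKM in ZnF1-/- thymus, and 0.53, 0.31 and 0.31 RPKM in wild type thymus, with no overlap between any of the 3 groups. Lypd1, whose product is a membrane-anchored protein of the Ly6 family, was at 3.33 and 2.92 RPKM in ZnF4-/- thymus, 0.17 and 0.27 RPKM in ZnF1-/- thymus, and 0.02, 0.01 and 0.03 RPKM in wild type thymus. Gpr39, which encodes a zinc-sensing G protein-coupled receptor, overlaps Lypd1 on the other strand and had 2.26 and 1.84 RPKM in ZnF4-/- thymus, 0.13 and 0.16 RPKM in ZnF1-/- thymus, and 0.02, 0.01 and 0.03 RPKM in wild type thymus. Whether the libraries kept strand was not given in the sources used here, so reads from the shared exons of Lypd1 and Gpr39 cannot be told apart. Nrp2 (a co-receptor for semaphorins and vascular endothelial growth factors), Sema6b (a transmembrane semaphorin), Art2b (a cell-surface ADP-ribosyltransferase of T cells), Tmem204 and the olfactory receptor gene Olfr524 made up the rest, at 1.69 to 4.83 RPKM in ZnF4-/- thymus.

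The 12 members that encode secreted proteins included a clotting enzyme, a neuropeptide precursor and a mast cell protease. F2, on chromosome 2 (91465477 to 91476571, minus strand), encodes prothrombin, the precursor of the protease that forms fibrin, made mainly by the liver. It had 6.32 and 6.56 RPKM in ZnF4-/- thymus, 0.36 and 0.31 RPKM in ZnF1-/- thymus, and 0.19, 0.24 and 0.23 RPKM in wild type thymus. The ZnF4-/- replicates were close to each other, and the ZnF1-/- libraries lay above the wild type ones. Penk, the precursor of the enkephalin opioid peptides, had 5.68 and 4.20 RPKM in ZnF4-/- thymus, 0.50 and 0.96 RPKM in ZnF1-/- thymus, and 0.46, 0.24 and 0.71 RPKM in wild type thymus. ZnF1-/- overlapped wild type for Penk. Fjx1, the mouse counterpart of the Drosophila four-jointed gene, had 4.55 and 5.17 RPKM in ZnF4-/- thymus, 0.14 and 0.27 RPKM in ZnF1-/- thymus, and 0.06, 0.11 and 0.22 RPKM in wild type thymus, with ZnF1-/- overlapping wild type. Lamb2, which encodes the laminin beta 2 chain of basement membranes, was at 3.84 and 3.81 RPKM in ZnF4-/- thymus, 0.52 and 0.78 RPKM in ZnF1-/- thymus, and 0.18, 0.43 and 0.17 RPKM in wild type thymus, so its ZnF1-/- libraries lay between the other groups. Inha, which encodes the alpha subunit of inhibin, was at 3.65 and 2.03 RPKM in ZnF4-/- thymus, 0.79 and 1.26 RPKM in ZnF1-/- thymus, and 0.10, 0.13 and 0.05 RPKM in wild type thymus. The 3 groups were separated for Inha too.

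Prss34, on chromosome 17 (25435339 to 25437106, plus strand), encodes a serine protease known from mast cells and basophils and was the least even member. It had 8.70 and 1.62 RPKM in ZnF4-/- thymus, 0 and 0.14 RPKM in ZnF1-/- thymus, and 0.04, 0.22 and 0.11 RPKM in wild type thymus. Prg2 and Mcpt8, granule genes of eosinophils, basophils and mast cells that are no members, had the same unevenness between the ZnF4-/- replicates. Prg2 was at 12.9 and 4.02 RPKM in ZnF4-/- thymus, 2.73 and 1.60 RPKM in ZnF1-/- thymus, and 0.94, 0.75 and 1.32 RPKM in wild type thymus (log2 2.39 ± 0.45, adjusted p = 0.0414, limma). Mcpt8 was at 5.08 and 1.34 RPKM in ZnF4-/- thymus, 0.17 and 0.48 RPKM in ZnF1-/- thymus, and 0.29, 0.19 and 0.14 RPKM in wild type thymus. Of a list of 7 other mast cell and basophil markers, chosen after these values were seen, 3 were tested. Kit rose in ZnF4-/- (log2 0.89 ± 0.15, adjusted p = 0.0267 from limma), where 2.24% of all tested genes were called higher. Cpa3 was not called (log2 0.47 ± 0.28, adjusted p = 0.763 from limma), nor with the replicate block (adjusted p = 0.388). Mcpt8 missed the threshold without the replicate block (log2 2.19 ± 0.45, adjusted p = 0.0626) and passed with it (adjusted p = 0.0146). The summed level of the list, Prss34 included, was 12.3 to 22.4 RPKM in ZnF4-/-, 5.40 to 8.14 RPKM in ZnF1-/- and 5.08 to 6.44 RPKM in wild type, with Fcer1a, Ms4a2 and Mcpt4 at no more than 0.16 RPKM in any library. The ZnF4-/- sum is partly high because Prss34 was chosen for its ZnF4-/- level. The part of these cells in the Prss34 level was not tested. The remaining secreted members were the growth factor gene Pdgfb, the semaphorin gene Sema3f, the chemokine gene Ccl8, the vasohibin gene Vash1, Fstl4 and the lipase gene Liph, at 1.69 to 3.81 RPKM in ZnF4-/- thymus.

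**Figure D2:**
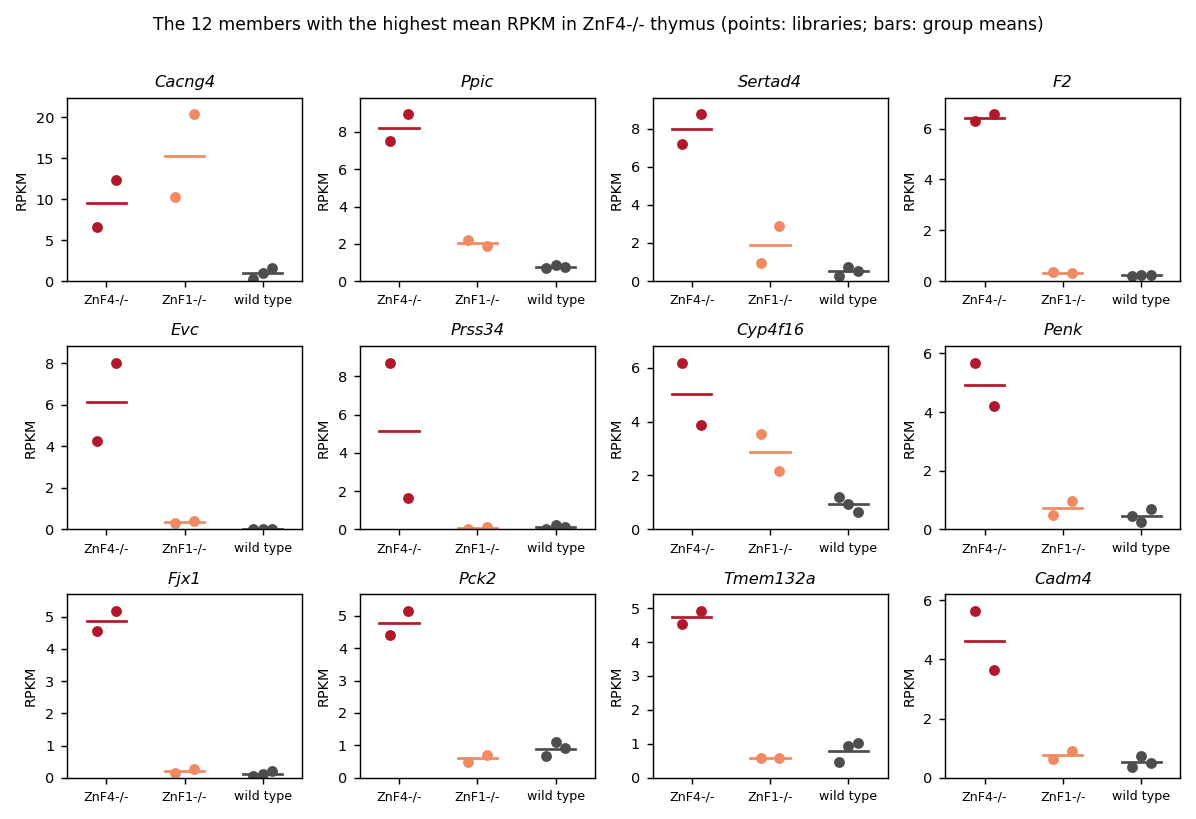
Each panel shows RPKM (linear axis from 0) of a member in the ZnF4-/- (2), ZnF1-/- (2) and wild type (3) libraries, with points for libraries and bars for group means, for the 12 members with the highest mean in ZnF4-/- thymus. Cacng4 is the panel in which ZnF1-/- lies above ZnF4-/-, and Prss34 is the panel in which the ZnF4-/- libraries lie farthest apart, at 8.70 and 1.62 RPKM.

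The largest role group, with 14 members, encodes proteins of the cytoskeleton, of cell junctions and of signalling. Dock1, an activator of the GTPase Rac in cell engulfment and migration, lies on chromosome 7 (141862370 to 142365322, plus strand). Its level was 3.88 and 5.02 RPKM in ZnF4-/- thymus, 0.05 and 0.12 RPKM in ZnF1-/- thymus, and 0.09, 0.08 and 0.07 RPKM in wild type thymus. The ZnF1-/- libraries fell on either side of wild type. Myo1e, which encodes a class I myosin, was at 4.03 and 5.09 RPKM in ZnF4-/- thymus, 0.58 and 0.69 RPKM in ZnF1-/- thymus, and 0.49, 0.68 and 0.63 RPKM in wild type thymus, again with ZnF1-/- overlapping wild type. Pde2a, a phosphodiesterase that degrades cyclic nucleotides, was at 3.77 and 4.12 RPKM in ZnF4-/- thymus, 0.77 and 1.49 RPKM in ZnF1-/- thymus, and 0.54, 1.1 and 0.78 RPKM in wild type thymus. Arhgef5, an exchange factor that activates small GTPases, was at 3.17 and 4.42 RPKM in ZnF4-/- thymus, 1.49 and 1.54 RPKM in ZnF1-/- thymus, and 1.04, 0.86 and 0.91 RPKM in wild type thymus. Its ZnF1-/- libraries were above wild type, whereas those of Pde2a overlapped it. Obsl1, which encodes a cytoskeletal adaptor related to obscurin, was at 2.08 and 1.91 RPKM in ZnF4-/- thymus, 0.62 and 0.97 RPKM in ZnF1-/- thymus, and 0.02, 0.06 and 0.04 RPKM in wild type thymus. Obsl1 and Inha lie 624 bases apart on chromosome 1, and for both of them the ZnF1-/- libraries were clear of wild type and below ZnF4-/-. Dst (a linker of cytoskeletal filaments), Lima1 (an actin-binding protein), Jub (a LIM protein of cell junctions), Inppl1 (an inositol phosphatase), Sh3gl3 (an endophilin), Gprin3 and Rassf8, among the rest, ranged from 1.66 to 4.73 RPKM in ZnF4-/- thymus.

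Transcription and RNA regulators made up 8 members. Sertad4, a member of the SERTA domain family of transcriptional co-regulators, lies on chromosome 1 (194670625 to 194681946, minus strand). Its level was 7.21 and 8.75 RPKM in ZnF4-/- thymus, 0.94 and 2.89 RPKM in ZnF1-/- thymus, and 0.25, 0.73 and 0.54 RPKM in wild type thymus, so the 3 groups were separated. Lmcd1, which encodes a LIM domain protein that restrains GATA factors, had 5.68 and 3.44 RPKM in ZnF4-/- thymus, 0.04 and 0.03 RPKM in ZnF1-/- thymus, and was the member listed at 0 in all 3 wild type libraries. Klf9, a zinc finger factor of the Krüppel-like family, had 3.87 and 3.97 RPKM in ZnF4-/- thymus, 1.07 and 1.15 RPKM in ZnF1-/- thymus, and 0.55, 0.69 and 0.56 RPKM in wild type thymus, with no overlap between groups. Eomes, the T-box factor of natural killer cells and memory CD8 T cells, had 1.70 and 2.66 RPKM in ZnF4-/- thymus, 0.23 and 0.18 RPKM in ZnF1-/- thymus, and 0.21, 0.40 and 0.28 RPKM in wild type thymus. Tshz2 (a zinc finger homeobox factor), Zc3h12c (a CCCH zinc finger protein), Khdrbs3 (a splicing regulator) and Pcgf2 (a Polycomb group protein) were at 1.51 to 3.42 RPKM in ZnF4-/- thymus, and their ZnF1-/- libraries were at 0.07 to 0.79 RPKM.

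Enzymes of metabolism and protein folding made up 7 members. Ppic, on chromosome 18 (53565995 to 53577661, minus strand), encodes cyclophilin C, a prolyl isomerase. It had 7.51 and 8.94 RPKM in ZnF4-/- thymus, 2.20 and 1.88 RPKM in ZnF1-/- thymus, and 0.69, 0.84 and 0.73 RPKM in wild type thymus, so the ZnF1-/- libraries formed a middle level. Cyp4f16, of the cytochrome P450 family, had 6.18 and 3.88 RPKM in ZnF4-/- thymus, 3.55 and 2.16 RPKM in ZnF1-/- thymus, and 1.21, 0.95 and 0.63 RPKM in wild type thymus. Pck2, the mitochondrial phosphoenolpyruvate carboxykinase, had 4.41 and 5.14 RPKM in ZnF4-/- thymus, 0.49 and 0.71 RPKM in ZnF1-/- thymus, and 0.66, 1.09 and 0.91 RPKM in wild type thymus. Within each read length ZnF1-/- was below wild type for Pck2, and its libraries lay between the other groups for Cyp4f16. Pon3, a paraoxonase, had 3.05 and 3.88 RPKM in ZnF4-/- thymus, 1.31 RPKM in each ZnF1-/- library, and 0.55, 0.50 and 0.55 RPKM in wild type thymus. Fah (the last enzyme of tyrosine breakdown), Serpinh1 (a collagen chaperone) and St6galnac3 (a sialyltransferase) were at 1.79 to 3.27 RPKM in ZnF4-/- thymus. Outside these roles, the interferon-induced gene Ifi44, Trim16, Bex1, 1110032F04Rik and C530028O21Rik were at 1.75 to 3.63 RPKM in ZnF4-/- thymus. Olfr524, Cyp4f16, H2-M2, Art2b and Prss34 belong to multigene families, so reads shared with close copies make their levels uncertain.

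In ZnF1-/- thymus most members stayed far below their ZnF4-/- level, and the ZnF1-/- mean was above the wild type mean for 45 of 59. That count leaves out the 15 genes removed because both ZnF1-/- libraries were low. It was not set against other genes, so it is a description only. Both ZnF1-/- libraries were below the lower ZnF4-/- library for 58 of 59 members, with Cacng4 the exception. The members were chosen for high values in both ZnF4-/- libraries, with no such demand on ZnF1-/-. Lower levels in ZnF1-/- than in ZnF4-/- are therefore favoured by the choice and are given as a description. The ZnF1-/- mean was 0.768% to 161% of the ZnF4-/- mean, with a median of 17.0%, and it reached 1 RPKM for 12 members. Both ZnF1-/- libraries were above the highest wild type library for 28 of 59 members (47.5%), against 9.6% of the 6398 genes with a wild type mean below 1 RPKM and 7.54% of all genes in the table. That share leaves out the 15 genes removed because both ZnF1-/- libraries were low, and it is 37.8% of 74 genes with them. The low wild type values that the choice of members required also enter this count. Within the 76 base libraries and within the 50 base libraries alike, ZnF1-/- was above all wild type libraries for 36 members, against 14.2% of genes with a wild type mean below 1 RPKM. Penk, Cadm4, Fjx1, Myo1e and Pde2a were among the 36, so their overlap with wild type arose only across read lengths. Tmem132a and Dock1 were not among them.

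**Figure D3:**
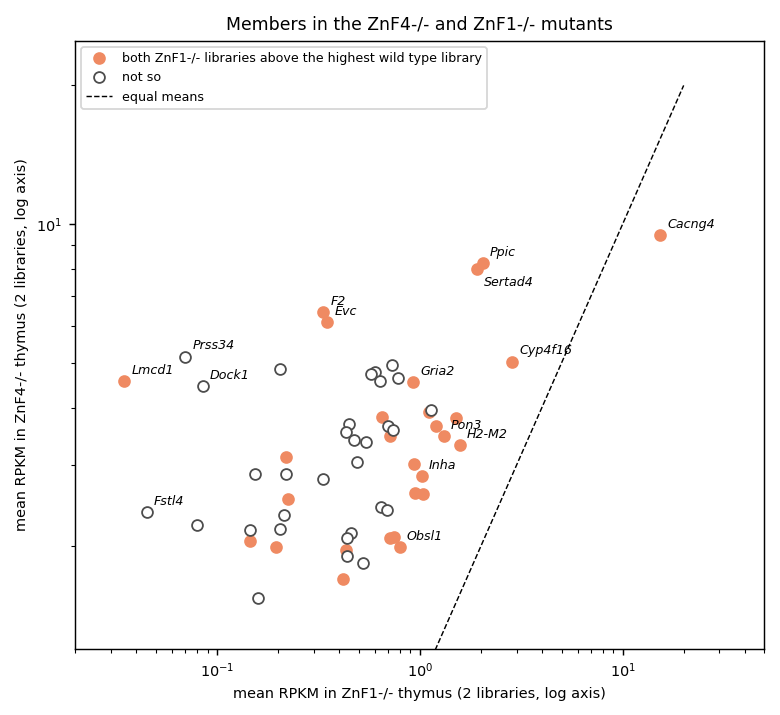
Mean RPKM in ZnF4-/- thymus (vertical, log axis, 2 libraries) is plotted against mean RPKM in ZnF1-/- thymus (horizontal, log axis, 2 libraries) for the 59 members, with filled points where both ZnF1-/- libraries were above the highest wild type library (28 members). All members but Cacng4 lie above the dashed line of equal means, which the choice of members by ZnF4-/- level favours.

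A total of 39 members averaged 1 RPKM or more across the 7 libraries and could be tested. None of them was called in ZnF1-/- against wild type (limma on log2(RPKM + 0.5), adjusted p under 0.05), where 0.0762% of all 10498 tested genes were called higher and 0.00953% lower. At an unadjusted p under 0.05, 12 of the 39 were higher and none lower, where 2.12% of all tested genes were higher. With the replicate number as a block, 6 members were called higher and none lower, against 0.572% and 0.305% of tested genes. Members reached the filter through their ZnF4-/- values, so without the filter all 59 were also fitted. Then none was called, with 17 higher at an unadjusted p under 0.05 (2.85% of all fitted genes) and 0.024% of genes called higher, and with the block Cacng4 alone was called, against 0.102%. The choice of members removed 15 genes with both ZnF1-/- libraries below wild type and required low wild type values. Both steps favour higher over lower counts in each of these fits. The absence of lower members is therefore no result, and the higher shares are raised by the choice.

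Cacng4 had the largest fitted difference of the 6, at 3.45 ± 0.48 log2 units in ZnF1-/- over wild type (SE; adjusted p = 0.0917, limma), and 3.62 ± 0.18 with the block (adjusted p = 0.000199). Gria2 was higher in ZnF1-/- by 1.32 ± 0.19 (adjusted p = 0.114), and by 1.30 ± 0.17 with the block (adjusted p = 0.0190). Differences of the other called members were smaller and similar to each other. Cyp4f16 differed by 1.22 ± 0.29 (adjusted p = 0.471; with the block 0.0246) and H2-M2 by 1.21 ± 0.25 (adjusted p = 0.327; with the block 0.0265). Ppic differed by 1.02 ± 0.17 (adjusted p = 0.128; with the block 0.0265) and Sertad4 by 1.16 ± 0.38 (adjusted p = 0.900; with the block 0.0485). The Sertad4 difference depended on the library left out: it was 0.55 without ZnF1-/- replicate 2 and 1.78 without ZnF1-/- replicate 1. For Inha the difference was 1.35 ± 0.28 and for Pon3 0.81 ± 0.18, and neither passed with the block (adjusted p = 0.0721 and 0.0777). Because 0.5 RPKM was added before the logarithm, these differences understate the change of genes near 0.

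Genes related to the members by pathway were compared in ZnF4-/- thymus, where 2.24% of all tested genes were called higher and 0.305% lower. Of tested genes outside the value limits of the members, 1.73% were called higher, and 5.6% with the block. Only 17 other genes of the coagulation, glutamate receptor, hedgehog and SERTAD lists could be tested, of which none was called without the block, and 3 were called higher and 1 lower with it. With the block, 6.1% of all tested genes were called higher and 2.12% lower, and so few tested genes do not separate the lists from that share. Of 17 other coagulation genes, 4 were tested and none was called without the block; with it, the cofactor gene F5 rose (log2 1.33 ± 0.23, adjusted p = 0.0108) and F13a1 fell by 0.43 ± 0.10 log2 units (adjusted p = 0.0407). The thrombin receptor gene F2r was at 4.36 and 5.60 RPKM in ZnF4-/- thymus, 3.40 and 5.26 RPKM in ZnF1-/- thymus, and 5.24, 6.76 and 5.68 RPKM in wild type thymus (log2 -0.22 ± 0.22 in ZnF4-/- over wild type, adjusted p = 0.931). Of 11 other ionotropic glutamate receptor genes, 9 were under 1 RPKM in every library and 2 were tested, Gria3 and Grik5, of which none was called with or without the block. Gria3, which encodes another AMPA receptor subunit, was at 1.76 and 0.93 RPKM in ZnF4-/- thymus, 1.18 and 1.43 RPKM in ZnF1-/- thymus, and 1.12, 0.89 and 0.54 RPKM in wild type thymus (log2 0.44 ± 0.28 in ZnF4-/- over wild type, adjusted p = 0.801). The groups overlapped for Gria3, unlike Gria2.

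Of 17 other hedgehog and EvC genes, 7 were tested and none was called without the block. The receptor Ptch1 was at 10.1 and 13.4 RPKM in ZnF4-/- thymus, 8.77 and 12.1 RPKM in ZnF1-/- thymus, and 8.69, 12.2 and 12.1 RPKM in wild type thymus. With the block, the co-receptor gene Cdon (log2 0.85 ± 0.13, adjusted p = 0.00571) and the cilium motor gene Kif3a (log2 0.69 ± 0.15, adjusted p = 0.0312) rose. None of the 4 other SERTAD list genes was called with or without the block. Sertad1, Sertad2 and Sertad3 were between 5.30 and 12.8 RPKM in every library, against 0.25 to 0.73 RPKM for Sertad4 in wild type. In the Ikaros family, Ikzf3 (log2 0.80 ± 0.15, adjusted p = 0.0459) and Ikzf4 (log2 1.24 ± 0.18, adjusted p = 0.0167) rose in ZnF4-/- thymus, and with the block Ikzf1 and Ikzf2 rose as well (adjusted p = 0.00737 and 0.0181).

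Genes named like a member were compared next. Among the 597 other genes in the table that share a member's symbol stem, such as Dock or Sema, 272 were tested. Of these, 11 (4.04%) were called higher in ZnF4-/- thymus and 2 lower, with a median difference of log2 -0.03 over those tested. The share called higher was 2.24% of all tested genes and 1.73% of those outside the value limits of the members. With the block, 27 (9.93%) were called higher and 6 lower, where 6.1% of all tested genes were called higher and 2.12% lower. Outside the value limits, 5.6% were called higher with the block. The other 3 genes of the Cacng stem were below 1 RPKM in every library. Nrp1, the partner of Nrp2 as a semaphorin receptor, was at 25.5 and 44.6 RPKM in ZnF4-/- thymus, 10.6 and 15.7 RPKM in ZnF1-/- thymus, and 15.4, 15.8 and 15.8 RPKM in wild type thymus. The Nrp1 difference in ZnF4-/- over wild type was log2 1.08 ± 0.26 (adjusted p = 0.110, limma), and 1.15 ± 0.16 with the block (adjusted p = 0.00409).

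**Figure D4:**
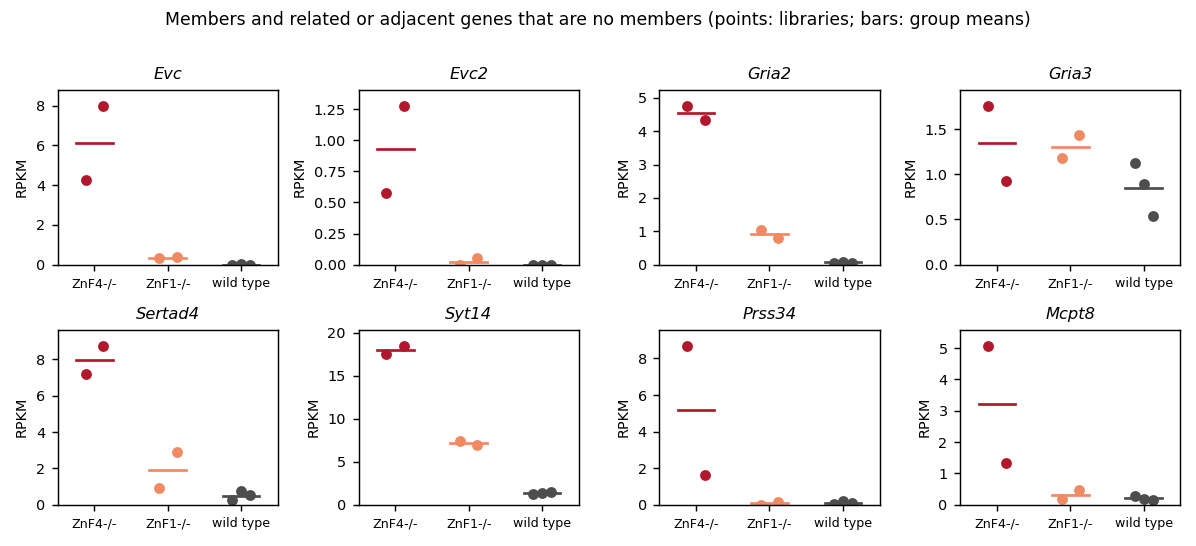
Panels show RPKM (linear axes from 0) in the ZnF4-/- (2), ZnF1-/- (2) and wild type (3) libraries for the members Evc, Gria2, Sertad4 and Prss34, each beside a related or adjacent gene that is no member (Evc2, Gria3, Syt14 and Mcpt8). Points are libraries and bars are group means; Evc2 and Mcpt8 have the same order of ZnF4-/- replicates as their partners, while the groups overlap for Gria3.

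The table genes next to the members on the chromosome were also compared. Of 112 neighbours that were no members, 66 were tested. Tceal8, 41.6 kb from Bex1, is 1 of the 15 genes that met the value limits and were left out for low ZnF1-/- values, so its ZnF4-/- level is no result here. Of the 65 others, 2 (3.08%) rose in ZnF4-/- thymus and none fell, against 1.73% of all tested genes outside the limits. The 2 were Syt14 and Cd163l1, which missed the value limits only by wild type means of 1.38 and 1.02 RPKM. Syt14 was also among the genes set aside by name beforehand. So few calls, so close to the choice of members, do not separate neighbours from other genes. With the block 7 (10.8%) rose, against 5.6%. All of these 7 lay within 50 kb of the member, as did 46 of the 65 tested, so they do not show an effect of distance. Syt14, a synaptotagmin gene 41.5 kb from Sertad4, was at 17.6 and 18.5 RPKM in ZnF4-/- thymus, 7.44 and 6.91 RPKM in ZnF1-/- thymus, and 1.29, 1.38 and 1.48 RPKM in wild type thymus (log2 3.30 ± 0.13 in ZnF4-/- over wild type, adjusted p = 0.000149). Syt14 and Sertad4 thus shared the order of the groups. Cd163l1, 15.5 kb from Olfr524, was at 6.33 and 4.34 RPKM in ZnF4-/- thymus, 0.50 and 0.87 RPKM in ZnF1-/- thymus, and 1.02, 1.27 and 0.78 RPKM in wild type thymus (log2 1.93 ± 0.25, adjusted p = 0.00907). That gap holds for the GENCODE M1 annotation only. In the RefSeq annotation Cd163l1 overlaps the promoter window of Olfr524, so the 2 genes may not be separate there. With the block alone, Lrg1 (1.14 kb from Sema6b), Plaur (6.15 kb from Cadm4), Zfp217 (36.8 kb from Tshz2), and Fbxw10 and Slc15a3, which overlap Trim16 and Tmem132a, also passed. Exons of 13 members overlap an annotated gene, and for 8 of them a protein-coding one, and reads on shared exons cannot be told apart.

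**Figure D5:**
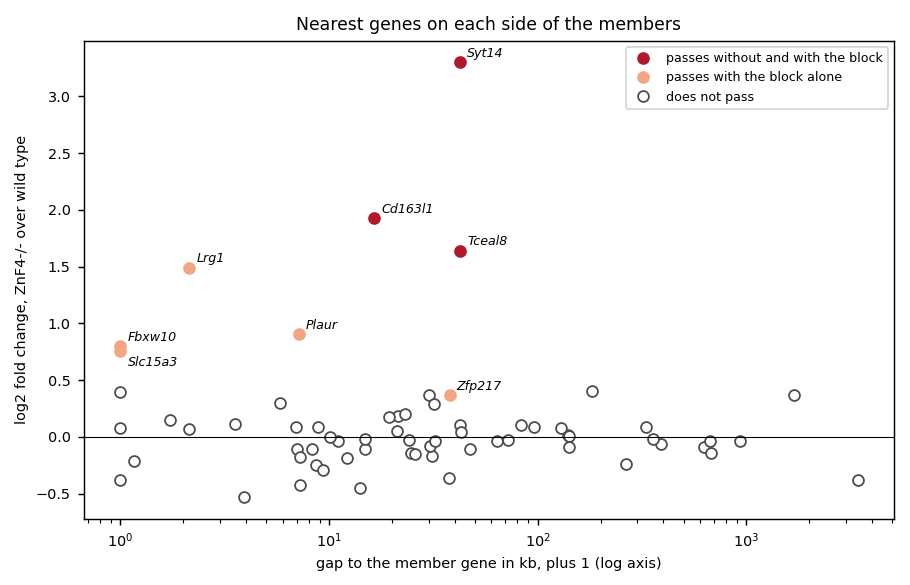
The log2 fold change in ZnF4-/- over wild type (vertical) of the 66 tested neighbours is plotted against their gap to the member in kb plus 1 (horizontal, log axis), with filled points for neighbours that passed without and with the block or with the block alone. Syt14 is highest at 3.30, and the filled points are all within 50 kb, as are 47 of the 66 tested neighbours. Tceal8 met the value limits of the members and is drawn only as a description.

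Marker genes of cell types that whole thymus could hold differed between groups as follows. Thymocyte markers (12 genes) summed to 4913 to 5771 RPKM in ZnF4-/-, 5917 to 6739 RPKM in ZnF1-/- and 5242 to 7056 RPKM in wild type, with each of the 12 at 14.6 RPKM or more in every library. None of the 12 was called without the block, and with it Cd8a fell by 0.51 ± 0.13 log2 units in ZnF4-/- (adjusted p = 0.0479). Thymic epithelial markers (13 genes) summed to 44.9 to 54.6 RPKM in ZnF4-/-, 11.6 to 17.9 RPKM in ZnF1-/- and 14.1 to 22.1 RPKM in wild type. That sum holds Krt18, at 7.58 and 12.35 RPKM in ZnF4-/-, which met the value limits that define the members. The ZnF4-/- sum is therefore partly high by that choice, and Krt18 is left out of the calls. Of the 3 other tested epithelial markers, Cldn4 rose, against 1.73% of all tested genes outside those limits, and 9 markers were under 1 RPKM in every library. Natural killer cell markers (9 genes, including Eomes) summed to 79.2 to 79.9 RPKM in ZnF4-/-, 36.2 to 39.9 RPKM in ZnF1-/- and 40.0 to 53.6 RPKM in wild type. That sum holds Klrd1, at 3.76 and 3.78 RPKM in ZnF4-/-, and the member Eomes, at 1.70 and 2.66 RPKM. Both met the value limits, so the ZnF4-/- sum is partly high by that choice, and both are left out of the calls. Of the 3 other tested natural killer markers Nkg7 rose, while Ncr1 was at 0.03 to 0.24 RPKM in every library. Klrb1c was lower in ZnF4-/- (0.18 and 0.10 RPKM) than in wild type (0.43, 0.67 and 0.50 RPKM). Gzmb was lower as well, at 0.67 and 0.71 RPKM in ZnF4-/- against 0.74, 0.82 and 0.93 RPKM in wild type. Klrb1c and Gzmb were too low to be tested.

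Macrophage and dendritic markers (12 genes) summed to 152 to 174 RPKM in ZnF4-/-, 102 to 108 RPKM in ZnF1-/- and 104 to 124 RPKM in wild type, and 0 of 10 tested were called without the block and 2 with it. Lyz2 alone was at 56.8 and 73.9 RPKM in ZnF4-/-, against 39.9, 39.2 and 26.5 RPKM in wild type. The means of Cd68, Mpeg1 and Flt3 were lower in ZnF4-/- than in wild type, and those of the other markers were higher. Fibroblast markers (8 genes) summed to 4.20 to 6.12 RPKM in ZnF4-/-, 2.5 to 3.75 RPKM in ZnF1-/- and 1.52 to 2.18 RPKM in wild type, with Pdgfrb called and the other 7 under 1 RPKM. Erythroid markers (6 genes) summed to 48.9 to 62.6 RPKM in ZnF4-/-, 10.7 to 30.5 RPKM in ZnF1-/- and 12.3 to 32.05 RPKM in wild type, with none of 3 called without the block and Hbb-b1 called higher with it (adjusted p = 0.00902). B cell markers (7 genes) summed to 14.98 to 19.6 RPKM in ZnF4-/-, 27.03 to 36.4 RPKM in ZnF1-/- and 19.7 to 24.7 RPKM in wild type, with none of 3 called without the block and Cd79b called lower with it (adjusted p = 0.0253). Endothelial markers (5 genes) summed to 37.9 to 42.3 RPKM in ZnF4-/-, 35.3 to 39.5 RPKM in ZnF1-/- and 29.9 to 42.1 RPKM in wild type. The part of these cell types in the level of the members was not tested. For F2, hepatocyte markers (4 genes) summed to at most 0.14 RPKM in ZnF4-/-, 0.25 RPKM in ZnF1-/- and 0.08 RPKM in wild type. For Gria2, Cacng4 and Penk, neuronal markers (7 genes) summed to 2.26 to 2.46 RPKM in ZnF4-/-, 1.95 to 1.99 RPKM in ZnF1-/- and 2.46 to 2.97 RPKM in wild type, with Gad1 at 0 throughout.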

How the data were processed

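Whole thymus libraries of 3 groups were compared: ZnF4-/- (2), ZnF1-/- (2) and wild type (3). The authors deposited RPKM values per RefSeq gene, made from exonic reads with SeqMonk on mouse build mm9, per the series' design text, which also states that duplicate transcripts were removed. TopHat and bedtools are named in the submitters' processing notes. Versions, strand and library totals are not given in the sources used here. RPKM scales each library by its own total, so a level is relative to the rest of that library.

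From these values, log2(RPKM + 0.5) was computed and 10498 genes averaging 1 RPKM or more across all 7 libraries were fitted together in limma 3.58.1 (lmFit, eBayes with trend, R 4.3.3), with no further scaling. P values are two-sided and Benjamini-Hochberg adjusted over all tested genes, with a threshold of 0.05, and errors of log2 differences are standard errors. The fit was tested on simulated data. Tables were handled in Python 3.11.15 with pandas 2.3.3.

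Replicate 1 differs from the other replicates in read length per the labels, and deviations from the group mean correlated at 0.489 to 0.737 in the 8 pairs of libraries that share a number. The 8 pairs are not independent, since the 2 libraries of a mutant deviate from their mean by equal and opposite amounts. Because the number coincides with read length and sex, the correlations do not show that animals were paired. Results blocked on the replicate number are given where they change a call. In the 76 base libraries, 44.5% to 62.4% of low values fell within 0.006 RPKM of a whole number of reads, against 10.3% to 13.5% by chance, which gave approximate depths but no exact counts.

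Members, gene lists and comparisons were chosen with earlier results of these data known. Values in every library are given for the 20 members with the highest ZnF4-/- mean, members at 0 in all wild type libraries, members called in ZnF1-/- and members of a list; Inha, Pon3, Obsl1, Lypd1 and Gpr39 were added after their values were seen, as were Nrp1 and the mast cell and basophil list. Values of 2 members are not reported singly here, though both stay in the counts. Coordinates are from GENCODE M1 on NCBIM37, and promoters from RefSeq on GRCm38.p6. Alternatives were other pseudocounts, no filter, scaling to a common median, the block, averaging of 2A and 2B, leaving out each library, and other limits for the choice of members.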

Additional observations from a re-analysis of the deposited data

How the results depend on the processing

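The number of members depended on the limits: 32 with a ratio of at least 5, 26 with a ZnF4-/- floor of 3 RPKM, 83 with a ratio of at least 2, and 53 after scaling libraries to a common median. Leaving out a library gave 59 to 101, the highest without ZnF4 replicate 2. The 9 genes called in ZnF1-/- against wild type became 92 with the replicate block, 4 without the filter, 21 without the filter and with the block (added after seeing the data), 18 with scaling (13 higher and 5 lower, against 8 and 1), 1 with 2A and 2B averaged, and 1 to 10 without a library, with fewer left for every library but wild type replicate 1. In the unchanged fit, 404 had an unadjusted p under 0.05. The 267 called in ZnF4-/- became 863 with the block, 621 without the filter, 1190 with both, 397 with scaling (329 higher and 68 lower) and 130 with 2A and 2B averaged, and 44 to 253 without a library: 44 without ZnF4 replicate 2, 87 without ZnF4 replicate 1, 119 without wild type 2B and 164 without wild type 2A. With the replicate block a larger share of genes passed in both mutants. The causes were not tested. For the 9 members with a ZnF1-/- difference followed across settings, no direction reversed in any setting. All 9 had both ZnF1-/- libraries above the highest wild type library. Leaving out a library, averaging 2A and 2B or changing the pseudocount therefore could not reverse them, and the lack of reversals is no result. The block brought 6 past the threshold, and scaling brought Cacng4 past it (adjusted p = 0.0353). A pseudocount of 0.1 RPKM raised the Gria2 difference to 2.59 and that of Inha to 2.53. Leaving out a mutant library leaves 1 sample in its group, which is then assumed to vary like the others. Depth limits the low levels, since a wild type value rests on few reads and the 50 base depth is unknown.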

Other observations

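The 15 genes that met the value limits but were left out because both ZnF1-/- libraries were below wild type form a group of their own by that choice, and no test is given. Gm4371 had the highest level of these in ZnF4-/- thymus, at 14.4 and 13.4 RPKM in ZnF4-/- thymus, 0.09 and 0.28 RPKM in ZnF1-/- thymus, and 0.98, 0.67 and 0.67 RPKM in wild type thymus. Pcsk1, which encodes a protease that cuts prohormones, was at 5.32 and 6.5 RPKM in ZnF4-/- thymus, 0.14 and 0.25 RPKM in ZnF1-/- thymus, and 0.65, 1.55 and 0.66 RPKM in wild type thymus. Akr1c18, which encodes an enzyme that inactivates progesterone, was at 3.56 and 6.86 RPKM in ZnF4-/- thymus, 0 and 0.06 RPKM in ZnF1-/- thymus, and 0.50, 0.63 and 0.57 RPKM in wild type thymus. Scd1, a fatty acid desaturase gene, was at 3.57 and 2.41 RPKM in ZnF4-/- thymus, 0.22 and 0.10 RPKM in ZnF1-/- thymus, and 0.49, 0.53 and 0.45 RPKM in wild type thymus. These genes were thus highest in ZnF4-/- and lowest in ZnF1-/- thymus, while 28 members had ZnF1-/- levels above wild type.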
